A study of Mus musculus with 18 samples.

Results

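The genes described here are the globin genes of embryonic red cells (Hba-x, Hbb-y and Hbb-bh1), the globin genes of adult-type red cells (Hba-a1, Hba-a2, Hbb-bs and Hbb-bt) and Alas2, the red cell enzyme that starts heme synthesis. They were selected on their measured levels in the libraries described here, so their differences between groups are given as a description, with no test. All 8 genes were found among the 55153 genes of the RNA-seq count table and among the 54838 genes of the Ribo-seq count table. RNA (RNA-seq) and ribosome-protected RNA fragments (Ribo-seq, in which ribosomes are held with cycloheximide and the RNA outside them is digested) were measured in mouse cerebral cortex at embryonic day 15.5 (E15.5). Each assay had 3 groups of 3 libraries, 18 libraries in all. Ctrl libraries are labelled wild type. F-cKO libraries come from mice with both Fto alleles floxed and an Emx1-Cre allele, and M-cKO libraries from mice with both Mettl3 alleles floxed and the same Cre. All are labelled strain C57BL/6, although by the methods the floxed lines had a mixed C57/BL6 and 129 background. Fto encodes an enzyme that removes methyl groups from adenosines in RNA, and Mettl3 encodes the catalytic subunit of the complex that adds N6-methyladenosine to RNA. The Emx1 promoter drives Cre in the cortical neural lineage, which does not give rise to red cells. For Ribo-seq, the methods describe lysing 3 samples of cortex "from 1 L", an abbreviation that is not explained, and whether a library holds 1 animal or several was not stated plainly. Whether the same replicate number in both assays means the same animals was not stated either.

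Hemoglobin is made of α-type and β-type globin chains that each carry a heme group. The first red cells of the mouse embryo arise in the yolk sac and make the embryonic chains. Red cells that arise later in the fetal liver make the adult chains, a change known as globin switching. Embryonic and adult chains do not separate these cells strictly, adult α chains least of all, so reads of these genes do not count either kind of cell. Red cells reach the cortex in its blood vessels, so their RNA enters a tissue library with whatever blood the dissected tissue holds. In bulk tissue, fewer cells of a type and less RNA per cell cannot be told apart.

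The RNA-seq libraries held between 18504094 and 22592406 counted reads. The Ribo-seq libraries held between 10973699 (F-cKO 2) and 35853227 (Ctrl 1) counted fragments. Reads of the 7 globins were 0.0279% to 0.0691% of the RNA-seq libraries. Fragments of 6 of them, all but Hbb-bh1, were 0.0210% to 0.0495% of the Ribo-seq libraries.

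In Ribo-seq, 2 libraries stood apart from the rest. In F-cKO 2, 326 of 11987 genes with a median of at least 1 RPKM were at least 4-fold above the next highest library, and in M-cKO 2 there were 76 such genes, against 3 or fewer in each of the other 7 Ribo-seq libraries. The same count was 0 of 13384 genes in every RNA-seq library. These 2 libraries were also the shallowest of the Ribo-seq libraries. The summed level of 7 endothelial markers was 87.0 RPKM in Ribo-seq F-cKO 2 and between 4.51 and 9.25 RPKM in the other 8 Ribo-seq libraries. Values without Ribo-seq F-cKO 2 are given for the embryonic genes, the globin sums and shares and the list medians of red cell genes. Other Ribo-seq F-cKO values include it.

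The knockout targets were checked first. In RNA-seq, Fto measured 10.8, 11.2 and 8.37 FPKM in the Ctrl libraries (in the order of their replicate numbers, as throughout), 3.26, 7.56 and 2.43 FPKM in the F-cKO libraries, and 13.6, 12.1 and 13.4 FPKM in the M-cKO libraries. All F-cKO libraries lay below all Ctrl libraries, with F-cKO 2 closest to them. In Ribo-seq, Fto measured 25.9, 22.0 and 17.6 RPKM in Ctrl and 3.91, 2.11 and 4.04 RPKM in F-cKO, again without overlap. The edgeR fit gave a log2 fold change of −1.21 (SE 0.33, adjusted P 0.0298, lower in 3 of 3 libraries) for Fto in RNA-seq F-cKO, and of −2.67 (SE 0.25, adjusted P 0.35, lower in 3 of 3 libraries) in Ribo-seq F-cKO, where no gene passed an adjusted P of 0.05 by edgeR. DESeq2 called Fto in Ribo-seq F-cKO but not in RNA-seq F-cKO.

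Mettl3 went in opposite directions in the 2 assays. In RNA-seq it measured 5.84, 6.43 and 5.07 FPKM in Ctrl and 8.61, 7.82 and 8.34 FPKM in M-cKO, a log2 fold change of 0.50 (SE 0.09, adjusted P 0.002214, higher in 3 of 3 libraries). In Ribo-seq it measured 9.16, 9.25 and 9.93 RPKM in Ctrl and 6.78, 6.02 and 6.40 RPKM in M-cKO, a log2 fold change of −0.55 (SE 0.09, adjusted P 0.01565, lower in 3 of 3 libraries). The gene-level values span the whole gene and do not show the deleted exons separately. Fto was also higher in RNA-seq M-cKO, by a log2 fold change of 0.36 (SE 0.10, adjusted P 0.01681, higher in 3 of 3 libraries).

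The tissue label was checked on cortical genes. The most abundant of them was Neurod6, a transcription factor of excitatory neurons, with a mean of 346 FPKM over the RNA-seq libraries and 461 RPKM over the Ribo-seq libraries. Emx1, Pax6, Eomes, Tbr1, Fezf2 and Neurod2 also passed the filter on low counts in every comparison. Pax6, Eomes, Tbr1 and Fezf2 were called higher in RNA-seq F-cKO, Neurod2, Neurod6, Tbr1 and Fezf2 in RNA-seq M-cKO, and Emx1 in Ribo-seq M-cKO.

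Hbb-y, the embryonic ε-type β chain (ENSMUSG00000052187, chr7:103851754-103853207 on GRCm38.p6), was the most abundant embryonic globin in the knockout libraries. In RNA-seq it measured 2.04, 0.819 and 0.0844 FPKM in the Ctrl libraries, 10.4, 6.72 and 75.8 FPKM in the F-cKO libraries, and 2.99, 6.81 and 19.9 FPKM in the M-cKO libraries. These values rest on 29, 11 and 1 reads in Ctrl, 135, 87 and 1036 reads in F-cKO, and 43, 87 and 278 reads in M-cKO. Every knockout library lay above every Ctrl library, F-cKO 3 stood far above the rest, and the F-cKO and M-cKO libraries overlapped. Group means were 0.983 ± 0.990 FPKM in Ctrl, 31.0 ± 38.9 FPKM in F-cKO and 9.89 ± 8.85 FPKM in M-cKO (SD, n = 3), so the means of F-cKO and M-cKO did not differ beyond their spread. The fitted log2 fold change was 4.90 (SE 1.06) in F-cKO and 3.26 (SE 0.74) in M-cKO. Leaving out F-cKO 3 gave 3.04 for the F-cKO comparison, and leaving out Ctrl 1 gave 6.01. For the M-cKO comparison these were 2.25 without M-cKO 3 and 4.35 without Ctrl 1.

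Hba-x, the embryonic ζ-type α chain (chr11:32276600-32278116 on GRCm38.p6), was also higher in the knockout libraries, and lower than Hbb-y in 8 of the 9 RNA-seq libraries. In RNA-seq it measured 0.761, 0.352 and 0.285 FPKM in Ctrl, 1.92, 0.990 and 7.95 FPKM in F-cKO, and 0.845, 1.64 and 2.51 FPKM in M-cKO, from 16, 7 and 5 reads, 37, 19 and 161 reads, and 18, 31 and 52 reads. The knockout libraries again all lay above the Ctrl libraries, M-cKO 1 by little, and F-cKO 3 was the highest. The fitted log2 fold change was 2.91 (SE 0.77) in F-cKO and 1.78 (SE 0.47) in M-cKO, and without F-cKO 3 the first was 1.59.

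Hbb-bh1, the other embryonic β chain, was barely read at this age. Its RNA-seq counts were 1, 0 and 1 in Ctrl, 2, 1 and 4 in F-cKO, and 1, 5 and 2 in M-cKO, and it did not pass the filter on low counts in any comparison. With 2 reads over the Ctrl libraries and 7 and 8 over the knockout groups, a difference was not detectable at this depth. A level of 3 counts, the limit that a count of 0 allows, corresponded to between 0.216 and 0.261 FPKM for this gene in the RNA-seq libraries where it was read.

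In Ribo-seq, Hbb-y measured 0.744, 0.376 and 0.315 RPKM in Ctrl, 17.5, 23.4 and 1.55 RPKM in F-cKO, and 5.66, 7.67 and 3.51 RPKM in M-cKO. All knockout libraries lay above all Ctrl libraries, and F-cKO 3 was the lowest knockout library, although the RNA-seq library of that number was the highest. Hba-x measured 0.502, 0.339 and 0.638 RPKM in Ctrl, 3.56, 5.92 and 0.620 RPKM in F-cKO, and 2.78, 3.34 and 1.58 RPKM in M-cKO. For Hba-x the F-cKO group overlapped Ctrl through F-cKO 3, and the M-cKO libraries lay above Ctrl. Fitted log2 fold changes of Hbb-y were 4.92 (SE 1.08) in F-cKO and 3.52 (SE 0.47) in M-cKO, and those of Hba-x were 2.82 (SE 0.85) and 2.37 (SE 0.42). Without Ribo-seq F-cKO 2, which stood apart, the F-cKO values were 4.20 for Hbb-y and 1.98 for Hba-x. The Ribo-seq counts of Hbb-bh1 were blank in 8 of 9 libraries. Its RPKM was 0 in every Ctrl library, 0.308, 0.162 and 0 in F-cKO, and 0.198, 0.269 and 0.173 in M-cKO, which corresponds to 3 or fewer fragments in each library, so no fold is given.

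By the fits over all genes, 7 of the 8 genes passed the filter on low counts in each comparison. The counts of called members repeat the values that chose the genes, so they are a description and no test of them. In RNA-seq F-cKO, 3 of the 7 were called at an adjusted P below 0.05 (Hba-x and Hbb-y higher, Hbb-bs lower), where 21.1% of 16944 genes were called. Without Ctrl 3 neither embryonic gene was called, and the 2 called were Hbb-bs and Hba-a2, both lower, where 1543 of 17300 genes were called. Without Ctrl 2 Hba-x was not called, and without F-cKO 2 Hbb-bs was not called. With no filter on low counts 7 members were called, where 4430 of 30597 genes were called. They were those given above and, lower, Hba-a1, Hba-a2, Hbb-bt and Alas2. That fit gave far smaller SEs, 0.07 in place of 0.23 for Hba-a1 and 0.21 in place of 1.06 for Hbb-y.

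In RNA-seq M-cKO, 2 of the 7 were called (Hba-x and Hbb-y), where 29.6% of 16968 genes were called. Hba-x was not called without Ctrl 3, without M-cKO 3 or with all 9 libraries in 1 fit, and Alas2 was called as well, higher, without Ctrl 2. In Ribo-seq M-cKO, the same 2 genes were called, where 14.6% of 14314 genes were called. There Hba-x was not called without Ctrl 1, and no member was called by edgeR without Ctrl 2 or with all 9 libraries in 1 fit. DESeq2 was run on the 6 libraries alone, where it called 2 members and 3117 of 14294 genes. In Ribo-seq F-cKO, edgeR called none of the 7, where 0% of 14335 genes were called. There, 318 genes had an unadjusted P below 0.05, and DESeq2 called 6 genes, Hbb-y among them.

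Counted by overlap, 2 of the 3 embryonic genes lay above Ctrl in every F-cKO RNA-seq library, as did 20.9% of all genes tested, and 2 of 3 in every M-cKO RNA-seq library, as did 22.6%. In Ribo-seq, Hbb-y lay above Ctrl in every F-cKO library (3.66% of all genes tested), and Hba-x and Hbb-y in every M-cKO library (18.4%). By its RPKM Hbb-bh1 also lay above Ctrl in every M-cKO library. It was not among the genes tested, and its RPKM corresponds to 2 fragments in each of those libraries. Nothing is read from these shares, since the genes were selected on the same values.

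The sum of the embryonic globins was computed for each library as TMM-scaled CPM, its reads divided by the scaled library size, with Hba-x and Hbb-y alone in Ribo-seq because the counts of Hbb-bh1 were blank. In RNA-seq it was 2.06, 0.857 and 0.379 CPM in Ctrl, 8.51, 5.26 and 56.5 CPM in F-cKO, and 2.75, 6.15 and 15.1 CPM in M-cKO. No knockout library overlapped Ctrl. The ratio of group means was 21.4-fold in F-cKO (log2 4.42) and 7.29-fold in M-cKO (log2 2.87). In F-cKO the log2 ratio was 2.65 without F-cKO 3 and 5.24 without Ctrl 1, and in M-cKO it was 2.02 without M-cKO 3 and 3.69 without Ctrl 1.

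In Ribo-seq the embryonic sum was 0.770, 0.454 and 0.657 CPM in Ctrl, 11.4, 19.0 and 1.28 CPM in F-cKO, and 5.08, 6.96 and 3.07 CPM in M-cKO, again without overlap between knockout and Ctrl libraries. The ratio of means was 16.9-fold in F-cKO (log2 4.07) and 8.03-fold in M-cKO (log2 3.01). Without F-cKO 2 the log2 ratio in F-cKO was 3.34. With the Hbb-bh1 fragments recovered from RPKM, an alternative chosen after seeing the data, the same log2 ratios were 4.09 in F-cKO and 3.04 in M-cKO.

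The embryonic share of the globin reads was taken within each library, as a ratio of globin reads alone. Whether the libraries held the same mix of red cells was not tested. In RNA-seq this share was 0.551%, 0.126% and 0.102% in Ctrl, 2.59%, 1.88% and 14.1% in F-cKO, and 0.727%, 1.35% and 2.69% in M-cKO. Every knockout library was above every Ctrl library. The Wilson 95% interval of Ctrl 1, 0.413% to 0.734%, overlapped that of M-cKO 1, 0.568% to 0.931%, so those 2 libraries were not separated at this depth. F-cKO 3 had an interval of 13.4% to 14.9%. These intervals cover counting error only.

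In Ribo-seq the embryonic share was 0.179%, 0.0939% and 0.293% in Ctrl, 3.26%, 8.89% and 0.337% in F-cKO, and 1.23%, 1.63% and 1.04% in M-cKO. F-cKO 3 had an interval of 0.251% to 0.454% and was not separated from Ctrl 3, at 0.190% to 0.452%, or from Ctrl 1, at 0.124% to 0.259%, while the 3 M-cKO libraries lay close together. The difference of mean shares from Ctrl was 5.93 percentage points for F-cKO and 1.33 for M-cKO in RNA-seq, and 3.97 and 1.11 in Ribo-seq. Without RNA-seq F-cKO 3 the F-cKO difference was 1.97, and without Ribo-seq F-cKO 2 it was 1.61. In RNA-seq M-cKO it was 0.779 without M-cKO 3.

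**Figure D1:**
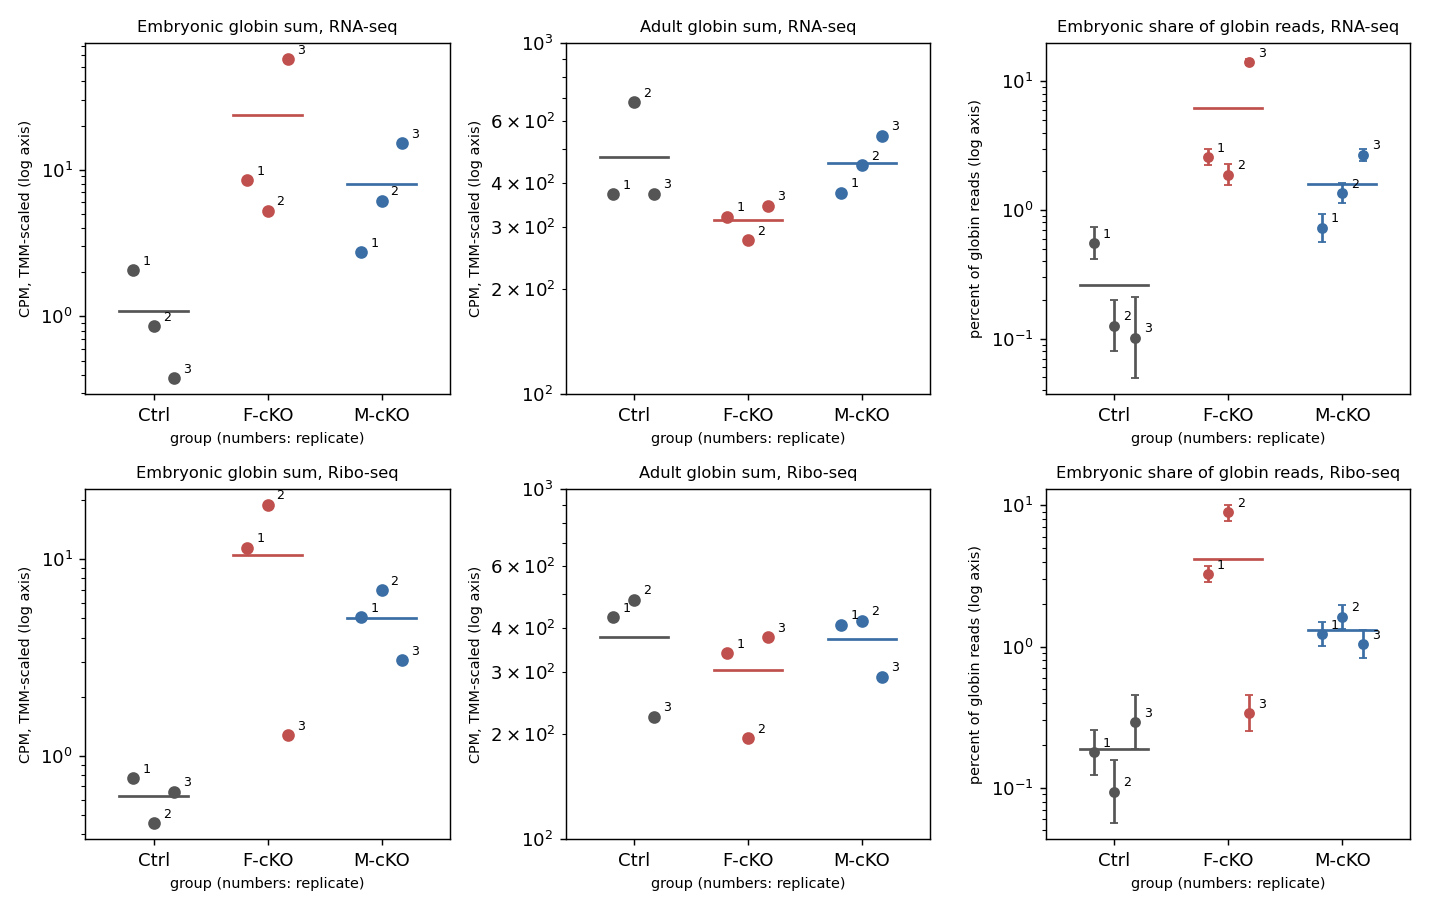
Embryonic globin sum and adult globin sum (TMM-scaled CPM, log axes) and the embryonic share of globin reads (percent, with Wilson 95% intervals) in each RNA-seq and Ribo-seq library, numbered by replicate, with group means as bars. The embryonic sum of all knockout libraries lies above that of all Ctrl libraries in both assays, and the adult sum lies between 194 and 680 CPM in all libraries.

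The 2 embryonic genes were also set against each other. The ratio of the Hbb-y level to the Hba-x level, both per length, was 2.69, 2.33 and 0.296 in the RNA-seq Ctrl libraries, 5.41, 6.79 and 9.54 in F-cKO, and 3.54, 4.16 and 7.92 in M-cKO. In Ribo-seq it was 1.48, 1.11 and 0.494 in Ctrl, 4.92, 3.94 and 2.50 in F-cKO, and 2.03, 2.30 and 2.22 in M-cKO. Every knockout library had a higher ratio than every Ctrl library in both assays, so Hbb-y differed from Ctrl by more than Hba-x did, with the ratio of Ctrl 3 in RNA-seq resting on 1 read of Hbb-y. Across the 9 libraries of an assay, which include all 3 groups, Hba-x and Hbb-y had a Pearson r of 0.977 in RNA-seq (Spearman rho 1) and of 0.970 in Ribo-seq (rho 0.883), on log2(CPM + 1). Without the 2 libraries farthest from the median, r was 0.953 and 0.941.

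The adult α genes Hba-a1 and Hba-a2 encode the α chain of fetal and adult hemoglobin. In RNA-seq, Hba-a1 measured 236, 458 and 257 FPKM in Ctrl, 212, 174 and 251 FPKM in F-cKO, and 255, 288 and 396 FPKM in M-cKO. Each knockout overlapped Ctrl, while all F-cKO libraries lay below all M-cKO libraries. Ctrl 2 was the highest of the 9 libraries and F-cKO 2 the lowest. Hba-a2 ranged from 22.9 FPKM (Ctrl 3) to 83.6 FPKM (Ctrl 2). Its F-cKO libraries, at 37.1, 33.6 and 38.2 FPKM, and its M-cKO libraries, at 43.3, 53.4 and 68.1 FPKM, each overlapped Ctrl but not each other. Fitted log2 fold changes in RNA-seq F-cKO were −0.59 (SE 0.23) for Hba-a1 and −0.57 (SE 0.34) for Hba-a2, and in M-cKO −0.03 (SE 0.22) and 0.03 (SE 0.33). Without Ctrl 2 these were −0.22 and −0.08 in F-cKO, and 0.34 and 0.52 in M-cKO. Without Ctrl 3, Hba-a2 was at −0.92 in F-cKO and −0.31 in M-cKO.

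The adult β genes Hbb-bs and Hbb-bt encode the β chains. In RNA-seq, Hbb-bs measured 134, 229 and 138 FPKM in Ctrl, 110, 97.0 and 101 FPKM in F-cKO, and 125, 160 and 160 FPKM in M-cKO. Hbb-bt measured 57.8, 100.2 and 53.4 FPKM in Ctrl, 52.8, 48.7 and 46.0 FPKM in F-cKO, and 58.3, 74.4 and 76.3 FPKM in M-cKO. For both genes the 3 F-cKO libraries lay below the 3 Ctrl libraries, Hbb-bt by little, and the M-cKO libraries overlapped Ctrl. Thus 2 of the 4 adult genes lay below Ctrl in every F-cKO RNA-seq library, as did 20.7% of all genes tested. The fitted log2 fold change in F-cKO was −0.71 (SE 0.18) for Hbb-bs and −0.53 (SE 0.20) for Hbb-bt, and without Ctrl 2 these were −0.41 and −0.19.

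In Ribo-seq the adult α genes measured 359, 390 and 188 RPKM (Hba-a1) in Ctrl, 264, 142 and 286 RPKM in F-cKO, and 312, 301 and 217 RPKM in M-cKO, with overlap throughout. Hba-a2 lay between 135 RPKM (F-cKO 2) and 384 RPKM (Ctrl 2). The adult β genes were far lower. Hbb-bs lay between 0.388 RPKM (F-cKO 2) and 6.01 RPKM (M-cKO 1), and Hbb-bt between 4.38 RPKM (F-cKO 2) and 22.8 RPKM (F-cKO 1). None of the 4 adult genes separated a knockout from Ctrl in Ribo-seq.

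The adult sum was 371, 680 and 373 CPM in RNA-seq Ctrl, 321, 274 and 344 CPM in F-cKO, and 375, 449 and 546 CPM in M-cKO. The F-cKO libraries lay below Ctrl (log2 ratio of means −0.60, and −0.25 without Ctrl 2), and the M-cKO libraries overlapped Ctrl (log2 ratio −0.06, but 0.30 without Ctrl 2 and 0.07 without M-cKO 1). With 1 library left out, these RNA-seq ratios ran from −0.75 to −0.25 in F-cKO and from −0.20 to 0.30 in M-cKO. In Ribo-seq the adult sum was 430, 483 and 224 CPM in Ctrl, 340, 194 and 378 CPM in F-cKO, and 409, 420 and 291 CPM in M-cKO, with overlap in both comparisons (log2 ratios −0.32 and −0.02). The first was −0.08 without F-cKO 2 and −0.59 without Ctrl 3. The second was 0.08 without Ctrl 1, 0.19 without Ctrl 2 and 0.13 without M-cKO 3, but −0.29 without Ctrl 3. Across the 9 libraries the embryonic sum did not follow the adult sum, with r −0.223 (rho −0.233) in RNA-seq and −0.382 (rho −0.450) in Ribo-seq, on log2(CPM + 1). Without the 2 libraries farthest from the median these were −0.228 and 0.130.

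Alas2, on chromosome X, encodes the form of aminolevulinate synthase used by red cell precursors. In RNA-seq it measured 3.29, 7.14 and 3.47 FPKM in Ctrl, 3.84, 3.11 and 3.28 FPKM in F-cKO, and 4.25, 4.53 and 6.87 FPKM in M-cKO. Each knockout overlapped Ctrl, while all F-cKO libraries lay below all M-cKO libraries. Its highest library was Ctrl 2, which was also the highest in all 4 adult globins. In Ribo-seq it measured 11.1, 13.7 and 9.80 RPKM in Ctrl, 8.34, 6.65 and 11.8 RPKM in F-cKO, and 9.37, 5.65 and 11.4 RPKM in M-cKO, again with overlap. Alas2 had an r of 0.926 (rho 0.883) with the adult sum across the RNA-seq libraries, 0.701 without the 2 farthest libraries, and of 0.268 (rho 0.333) across the Ribo-seq libraries, 0.488 without the 2 farthest. The fitted log2 fold change of Alas2 in RNA-seq F-cKO was −0.46 (SE 0.28), and without Ctrl 2 it was 0.01.

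**Figure D2:**
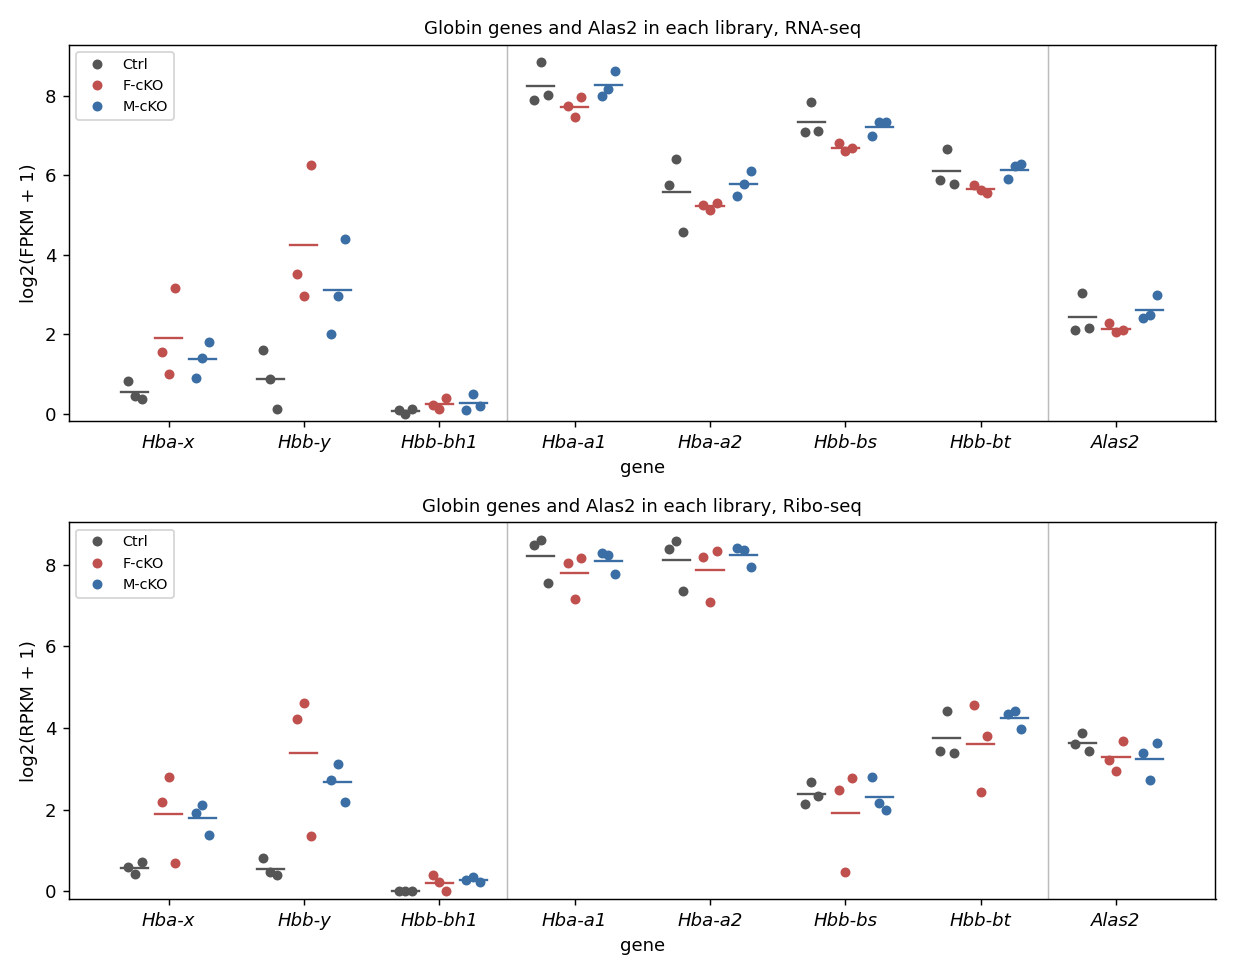
Level of each of the 8 genes in each library, as log2(FPKM + 1) for RNA-seq and log2(RPKM + 1) for Ribo-seq, by group, with bars at the means of the log2 values. Hbb-y and Hba-x lie higher in the knockout groups, although Hba-x in Ribo-seq F-cKO overlaps with Ctrl through F-cKO 3. The adult globins and Alas2 overlap with Ctrl except Hbb-bs and Hbb-bt in RNA-seq F-cKO.

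The adult genes come as near-identical copies, and how reads that fit more than 1 copy were assigned was not stated, so the split between copies is uncertain. Hba-a1 took 84.4% to 93.2% of the α reads in the RNA-seq libraries but 51.8% to 58.2% of the α fragments in the Ribo-seq libraries. Hbb-bs took 68.5% to 73.8% of the adult β reads in RNA-seq and 8.82% to 32.9% in Ribo-seq. The adult β genes together held 32.4% to 39.9% of adult globin reads in RNA-seq and 1.62% to 4.56% in Ribo-seq. For each of these 3 shares the ranges of the assays did not overlap.

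Per length, the adult β level was 0.509 to 0.700 of the adult α level in the RNA-seq libraries, lowest in F-cKO 3 and M-cKO 3, and 0.0172 to 0.0492 of it in the Ribo-seq libraries. Set against adult β, Hbb-y reached 51.6% of the level in RNA-seq F-cKO 3, and between 0.0441% and 8.41% in the other 8 RNA-seq libraries. In Ribo-seq F-cKO 2, which stood apart and had 34 adult β fragments, Hbb-y was at 490.4% of the adult β level. In the other 8 Ribo-seq libraries it lay between 1.46% (Ctrl 2) and 64.0% (F-cKO 1).

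Ribosome footprints per RNA were taken as the ratio of the mean Ribo-seq RPKM to the mean RNA-seq FPKM of a group. The assays may not share animals, so these ratios are descriptive. In Ctrl, F-cKO and M-cKO the ratio was 0.487, 0.457 and 0.568 for Hbb-y and 1.06, 0.931 and 1.54 for Hba-x. The median over all genes with a mean of at least 1 FPKM was 0.757, 0.786 and 0.743. With all libraries, Hbb-y lay below the median gene and Hba-x above it in all 3 groups, but single libraries changed this. The ratio was 0.984, 1.09 and 0.885 for Hba-a1, 5.55, 6.90 and 5.55 for Hba-a2, and 2.49, 2.62 and 1.69 for Alas2. It was 0.0257, 0.0351 and 0.0279 for Hbb-bs and 0.188, 0.272 and 0.260 for Hbb-bt, the lowest values among the adult globins and Alas2, and the reads shared between copies enter them. Without Ribo-seq F-cKO 2 the F-cKO ratio was 0.308 for Hbb-y and 0.578 for Hba-x, below the median gene, and Hba-x was also below it without RNA-seq F-cKO 1 (0.754) or RNA-seq F-cKO 2 (0.683). Without RNA-seq F-cKO 3 the F-cKO ratio was 1.66 for Hbb-y and 2.32 for Hba-x. Hbb-y was at 1.06 in Ctrl without RNA-seq Ctrl 1 and at 1.15 in M-cKO without RNA-seq M-cKO 3.

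Other red cell genes were read from 6 lists with 53 genes: other globin loci, the hemoglobin chaperone and red cell enzymes, heme synthesis, iron uptake and mitochondrial transport, red cell membrane and surface, and erythroid transcription and signalling. In RNA-seq F-cKO 1 of the 30 genes tested was called, Bpgm, which encodes bisphosphoglycerate mutase (log2 fold change −0.30, SE 0.09, adjusted P 0.03665, lower in 3 of 3 libraries). Bpgm was not called without Ctrl 1, Ctrl 2, Ctrl 3, F-cKO 2 or F-cKO 3, left out 1 at a time. Without Ctrl 2 the 1 gene called was Sptb, a spectrin gene, and without F-cKO 1 the count was 2, with Slc25a37 added. In RNA-seq M-cKO 3 of the 32 genes tested were called. They were Bpgm (log2 fold change 0.35, SE 0.07, adjusted P 0.003361, higher in 3 of 3 libraries), Bnip3l, a mitochondrial clearance gene (−0.30, SE 0.06, adjusted P 0.002415, lower in 3 of 3), and Hbq1b, a θ-type globin (−1.30, SE 0.38, adjusted P 0.02461, lower in 3 of 3). Hbq1b was not called without Ctrl 2, Ctrl 3, M-cKO 1 or M-cKO 3, left out 1 at a time. Without M-cKO 2 the count was 5, with Nfe2 and Zfpm1 added, both higher. Slc4a1, of the membrane list, was called higher without M-cKO 1 (log2 fold change 1.10) and with no filter on low counts (0.89). Nfe2 was also called higher without Ctrl 2 (2.55) and with no filter (1.74). DESeq2 called Bpgm and Bnip3l in RNA-seq M-cKO, but not Hbq1b.

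In Ribo-seq, edgeR called 0 of the 29 genes tested in F-cKO and 0 of 29 in M-cKO. The counts at an unadjusted P below 0.05 were 0 and 7, and DESeq2 called 0 and 4 (Prdx2, Cat and Fech lower, Lmo2 higher, named after their values were seen). Without M-cKO 3, edgeR called 3 of these genes in Ribo-seq M-cKO, Cat and Fech lower and Myb higher. Shares called in these comparisons are those given above for all genes, and those counts over all genes also moved with single libraries. In RNA-seq F-cKO 3576 genes were called, 1543 without Ctrl 3 and 1960 without F-cKO 2. In Ribo-seq M-cKO 2093 genes were called, 390, 177 and 461 without Ctrl 1, 2 and 3, and 880 and 1295 without M-cKO 1 and 2.

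The median log2 fold change of the heme synthesis list was 0.13 in RNA-seq F-cKO and 0.04 in RNA-seq M-cKO, beside −0.01 and −0.01 over all genes tested. It was −0.14 in Ribo-seq F-cKO and −0.21 in Ribo-seq M-cKO, beside 0.05 and −0.000284 over all genes. The medians of the red cell membrane list were 0.10 and 0.20 in RNA-seq and 0.40 and 0.24 in Ribo-seq, and those of the iron list −0.02 and 0.09 in RNA-seq and 0.25 and 0.10 in Ribo-seq. The enzyme list had medians of −0.10 and −0.03 in RNA-seq and −0.22 and −0.13 in Ribo-seq, and the transcription list −0.01 and 0.15 in RNA-seq and 0.18 and 0.44 in Ribo-seq. Without Ribo-seq F-cKO 2 the Ribo-seq F-cKO medians were −0.08 for heme synthesis, −0.07 for the membrane list, −0.03 for the iron list, −0.06 for the enzyme list and 0.14 for the transcription list. Other single libraries moved medians too. In RNA-seq F-cKO the membrane list was at −0.02 and the heme list at 0.01 without Ctrl 3, the enzyme list was at 0.04 without Ctrl 2, and the transcription list ran from −0.05 to 0.08. In RNA-seq M-cKO without Ctrl 2, the enzyme list was at 0.12, the heme list at 0.11 and the transcription list at 0.34. Without M-cKO 1 the membrane list of that comparison was at 0.405. In Ribo-seq M-cKO the iron list was at −0.03 without Ctrl 1. In the list of other globin loci, 1 gene was tested in each comparison.

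Many genes of these lists are also expressed in the cortex, and some of those restricted to red cell precursors were at or near 0. Gata1, the defining transcription factor of red cell precursors, had 0, 0 and 0 RNA-seq reads in Ctrl, 1, 2 and 0 in F-cKO, and 1, 0 and 0 in M-cKO. Klf1, which activates the adult β genes, had 7, 6 and 7 RNA-seq reads in Ctrl, 16, 9 and 14 in F-cKO, and 6, 8 and 4 in M-cKO. Every F-cKO library lay above every Ctrl library, but Klf1 did not pass the filter on low counts, and its part in the globin values was not tested. Gfi1b, Cldn13, Icam4, Hbb-bh2, Hbb-bh3 and Hba-ps3 had no read in any RNA-seq library, and Hbb-bh0 had 3 reads, all in F-cKO 3. In Ribo-seq, Hbb-bh0 and Icam4 were listed at 0 in all libraries. The most abundant genes of the 6 lists in RNA-seq were Hbq1b, Prdx2, Alad, Tmem14c, Gypc and Lmo2, and in Ribo-seq Hba-ps3, Prdx2, Urod, Tmem14c, Ank1 and Lmo2. In RNA-seq the summed level of the membrane list lay between 6.07 and 8.74 FPKM and that of the transcription list between 10.6 and 14.9 FPKM, with overlap between Ctrl and each knockout. The sum of the other globin loci lay below Ctrl in every RNA-seq M-cKO library, at 0.762 to 1.25 FPKM against 1.46 to 2.32 FPKM. In Ribo-seq M-cKO the membrane sum (4.5 to 5.50 RPKM against 4.13 to 4.37 in Ctrl) and the transcription sum (10.5 to 13.0 RPKM against 8.08 to 8.97) lay above Ctrl in every library, and the enzyme sum (395 to 518 RPKM against 548 to 613) lay below it. The other sums of the 6 lists overlapped Ctrl in both assays.

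In red cells, Bcl11a, Sox6, Zbtb7a, the nuclear receptors Nr2c1 and Nr2c2, and the chromatin proteins Dnmt1, Mbd2 and Chd4 are known for keeping embryonic globin genes silent. All 8 are also expressed outside red cells, and their reads here come from the whole tissue. In RNA-seq F-cKO 4 of the 8 were called, where 21.1% of all genes were, all 4 higher: Sox6 (log2 fold change 0.79), Nr2c2 (0.59), Chd4 (0.53) and Dnmt1 (0.31). In RNA-seq M-cKO 5 were called (29.6% of all genes), with Sox6 (0.65), Zbtb7a (0.42), Nr2c2 (0.33) and Chd4 (0.31) higher and Bcl11a lower (−0.24). In Ribo-seq M-cKO Mbd2 (0.89) and Sox6 (0.56) were called higher (14.6% of all genes were called), and in Ribo-seq F-cKO edgeR and DESeq2 called 0 of the 8, with 0 at an unadjusted P below 0.05. Chd4 was the most abundant of them in both assays. Among the globins of other cells, Cygb, a globin of fibroblast-like and neural cells, was higher in M-cKO in both assays (log2 fold change 0.88 in RNA-seq, adjusted P 5.844e-05, and 0.66 in Ribo-seq, adjusted P 0.02664, higher in 3 of 3 libraries in each).

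Markers of other cells that come with blood, vessels or neighbouring tissue were set beside the globins. The summed level of 7 endothelial genes in RNA-seq was 49.2, 53.2 and 53.1 FPKM in Ctrl, 42.5, 37.2 and 36.9 FPKM in F-cKO, and 40.2, 50.2 and 56.2 FPKM in M-cKO. F-cKO lay below Ctrl, with Cldn5, a tight-junction gene and the most abundant of the list, called lower (log2 fold change −0.63). The other 6 genes were not called, 1 of them lay above Ctrl and 1 below Ctrl in every F-cKO library, and the median of the list was 0.000115. The sum of 4 pericyte genes was 26.0, 25.7 and 30.3 FPKM in Ctrl, 23.8, 21.3 and 20.1 FPKM in F-cKO, and 21.2, 23.2 and 23.8 FPKM in M-cKO, below Ctrl in both knockouts. Its most abundant gene, Rgs5, was called lower in F-cKO (−0.40) and M-cKO (−0.41), and Pdgfrb in F-cKO (−0.37).

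The sum of 10 leukocyte and platelet genes in RNA-seq was 6.88, 12.4 and 7.42 FPKM in Ctrl, 6.29, 4.15 and 3.87 FPKM in F-cKO, and 6.43, 12.7 and 14.5 FPKM in M-cKO. F-cKO lay below Ctrl and M-cKO overlapped it, and Elane had no read in any library. The platelet chemokine gene Pf4, the most abundant of the list, was called lower in F-cKO (log2 fold change −1.81), and the phagocyte lysozyme gene Lyz2 was called higher in M-cKO (0.82). The sum of 5 meningeal genes was 9.02, 16.6 and 9.0 FPKM in Ctrl, 5.68, 2.27 and 6.92 FPKM in F-cKO, and 4.38, 16.5 and 22.7 FPKM in M-cKO. Of these, the collagen genes Col1a1, the most abundant, and Col1a2 and the transcription factor gene Foxc1 were called lower in F-cKO (−1.31, −1.40 and −0.87). DESeq2 called Foxc1 there, but neither Col1a1 nor Col1a2. F-cKO 3, the highest library in Hbb-y, was the lowest of the 9 in the endothelial, pericyte and leukocyte sums, whereas in the meningeal sum the F-cKO libraries had the same order as in Hbb-y. The M-cKO libraries had the same order as in Hbb-y in the endothelial, pericyte, leukocyte and meningeal sums. That order was not particular to these lists, since the microglial, red cell membrane and adult globin sums had it too.

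Microglial genes overlapped between Ctrl and each knockout in RNA-seq, with sums between 11.4 and 20.0 FPKM and C1qa as the most abundant. The sum of 6 liver genes was 0.361 to 2.50 FPKM in RNA-seq, with Apoa2 as the most abundant and overlap of each knockout with Ctrl. In Ribo-seq the liver sum was 15.8, 1.32 and 16.4 RPKM in Ctrl, 1.25, 0.980 and 10.4 RPKM in F-cKO, and 10.4, 1.38 and 0.895 RPKM in M-cKO, led by Alb. The 3 libraries highest in embryonic globins in Ribo-seq, F-cKO 1, F-cKO 2 and M-cKO 2, had between 0.980 and 1.38 RPKM in this sum. Low values were not particular to them. Ctrl 2, the lowest library in the Ribo-seq embryonic sum, had 1.32 RPKM, and M-cKO 3 had 0.895 RPKM. Of 6 genes of yolk sac endoderm, Ttr, which choroid plexus also makes, held most of the level, and their sum in RNA-seq ranged from 70.3 FPKM (Ctrl 1) to 789 FPKM (Ctrl 2), with each knockout overlapping Ctrl. Apom, of the same list, was called higher in RNA-seq M-cKO (log2 fold change 1.55).

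In Ribo-seq edgeR called 0 of the 31 tested genes of these 7 lists in F-cKO and 0 of 31 in M-cKO. At an unadjusted P below 0.05 there were 0 and 4, and DESeq2 called 0 and 2 (Pdgfrb and Dcn, both lower, named after their values were seen). Among these sums 1 separated a knockout from Ctrl, the pericyte sum, which was lower in M-cKO. The most abundant genes were the same as in RNA-seq except in the liver list. The part of vessel, blood or neighbouring cells in the globin values was not tested.

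The genes most like the globins were ranked by Pearson r of log2(CPM + 1) over the 9 libraries of an assay, which share the 3 groups. For the RNA-seq embryonic sum these were, among 2533 genes, Dmrta1 (r 0.960, rho 0.950), Eya4 (r 0.958, rho 0.967), Wnt3a (r 0.947, rho 0.900), Cckar (r 0.942, rho 0.867) and Ncaph (r 0.926, rho 0.950). All 5 were highest in F-cKO 3, and without the 2 farthest libraries (Ctrl 3 and F-cKO 3) their r lay between 0.859 and 0.925. Dmrta1 encodes a transcription factor of cortical progenitors, Wnt3a a signal of the cortical hem, and Ncaph a condensin subunit. For the RNA-seq adult sum they were Fgfbp1 (r 0.957, rho 0.850), Vstm4 (r 0.955, rho 0.733), Gxylt2 (r 0.950, rho 0.917), S100a11 (r 0.943, rho 0.967) and Aebp1 (r 0.939, rho 0.767).

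For the Ribo-seq embryonic sum, among 6844 genes, they were Cenpe (r 0.975, rho 0.817), Plekha7 (r 0.973, rho 0.883), Polq (r 0.973, rho 0.900), Baz1a (r 0.965, rho 0.867) and Bbx (r 0.964, rho 0.867). For the Ribo-seq adult sum they were Rprm (r 0.915, rho 0.950), Dctn6 (r 0.909, rho 0.817), Pim3 (r 0.907, rho 0.883), Zfp319 (r 0.887, rho 0.833) and Ip6k1 (r 0.883, rho 0.867), and 2 of these, Pim3 and Ip6k1, fell to 0.605 and 0.650 without the 2 farthest libraries. No gene appeared in more than 1 of the 4 lists. Ranking by Spearman rho kept 1 of the 5 genes in 3 of these lists and none in the Ribo-seq embryonic list.

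The β-type genes lie together on chromosome 7, in the order Hbb-bt, Hbb-bs, Hbb-bh1 and Hbb-y by rising coordinate, and the α-type genes on chromosome 11, in the order Hba-x, Hba-a1 and Hba-a2. Hbb-bt starts at 103812524 and Hbb-y ends at 103853207, and Hba-x starts at 32276600 and Hba-a2 ends at 32297310 (GRCm38.p6). Promoter sequences from RefSeq were matched for 7 of the 8 genes, all but Hbb-bh1. The 150 bases before the start of the embryonic genes Hba-x and Hbb-y are shown beside 1 adult gene of each cluster, with capitals marking 4 motifs on either strand. They were GATAA, with TTATC as its reverse, then CACCC, with GGGTG as its reverse, then CCAAT, with ATTGG as its reverse, and lastly TGACC, with GGTCA as its reverse. Hba-x lies at chr11:32276450-32276599 on the plus strand, Hbb-y at chr7:103853208-103853357 on the minus strand, Hba-a1 at chr11:32283522-32283671 on the plus strand, and Hbb-bs at chr7:103827929-103828078 on the minus strand, all on GRCm38.p6.
Hba-x: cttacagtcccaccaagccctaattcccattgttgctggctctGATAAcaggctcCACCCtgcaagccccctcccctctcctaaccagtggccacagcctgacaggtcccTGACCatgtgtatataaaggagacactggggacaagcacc
Hbb-y: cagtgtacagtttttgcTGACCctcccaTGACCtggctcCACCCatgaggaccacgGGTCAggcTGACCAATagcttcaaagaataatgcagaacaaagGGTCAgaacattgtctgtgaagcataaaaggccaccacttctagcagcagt
Hba-a1: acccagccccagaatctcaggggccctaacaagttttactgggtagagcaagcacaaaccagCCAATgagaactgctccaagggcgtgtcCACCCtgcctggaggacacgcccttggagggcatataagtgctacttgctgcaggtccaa
Hbb-bs: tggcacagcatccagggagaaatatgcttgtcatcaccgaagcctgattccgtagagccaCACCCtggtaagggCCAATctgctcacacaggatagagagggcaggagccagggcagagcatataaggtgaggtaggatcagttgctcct

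All 7 promoters held at least 1 CACCC, the core of the motif bound by Klf1 and related factors, as did 37.4% of 32851 mouse promoters of the same length. GATAA, the core of the GATA factor motif, was in Hba-x and Alas2 (13.3% of all promoters), and CCAAT in the 5 other genes (24.5%). Hbb-y held 5 matches to TGACC, a core of many nuclear receptor motifs, 1 of them overlapping its CCAAT. At least 1 TGACC was in 23.1% of all promoters, and 5 or more matches were in 8 promoters (0.0244%), Hbb-y among them. The limit of 5 is the number found in Hbb-y, so this share is no test. At that limit CACCC was in 54 promoters, CCAAT in 7 and GATAA in 0. The motifs were searched in this window alone, and a match describes letters only. Over 250 bases before the start, Hba-a1 and Hba-a2 shared an identical run of 247 bases, whereas Hbb-bs and Hbb-bt shared at most 14 and the embryonic pair Hba-x and Hbb-y at most 10.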

How the data were processed

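RNA-seq and Ribo-seq libraries of E15.5 cortex came from 3 groups with 3 replicates. The authors deposited raw counts for both assays, made from reads aligned to mm10 (HISAT2 2.0.5 for RNA-seq, TopHat2 and HTSeq for Ribo-seq). The authors also deposited FPKM for RNA-seq and RPKM for Ribo-seq, which are printed here as levels. Within an assay, the 6 libraries of a knockout and Ctrl were fitted alone with edgeR 4.0.16 in R 4.3.3 (filterByExpr with a minimum count of 10, TMM scaling, quasi-likelihood test, Benjamini-Hochberg over all genes tested, called at an adjusted P below 0.05). Both comparisons of an assay share its Ctrl libraries. DESeq2 1.42.0 was the other tool. The code was tested on simulated data. In Ribo-seq, 40490 of 54838 genes have blank counts in 8 of 9 libraries, Hbb-bh1 among them, and were left out of the fits. CPM used TMM over the 9 libraries of an assay. Other values used Python 3.11.15, pandas 2.3.3 and scipy 1.17.1. Alternatives were other scaling (RLE), no filter, all 9 libraries in 1 fit, a replicate block, each library left out and, added after seeing the data, recovered Hbb-bh1 counts. The members and the 16 lists were chosen with earlier results of these data known. Genes named are the members, Mettl3, Fto, Gata1 and Klf1, some cortical genes, from each list but the cortical one the called genes, the most abundant gene and those with 0 counts throughout, and the 5 genes most like each globin sum by Pearson r. Those had at least 10 counts in at least 3 libraries and a range of log2(CPM + 1) of at least 1. 1 listed gene, Ahsp, was not analysed here. Some values of the cortical list are not reported here.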

Additional observations from a re-analysis of the deposited data

Results flagged for a closer look

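Hbb-bh1 had blank counts in 8 of 9 Ribo-seq libraries and so entered no count-based comparison, but its deposited RPKM was above 0 in M-cKO, where Ctrl was listed at 0. The mean of the 3 M-cKO libraries was 0.213 RPKM, with each of them above 0, and F-cKO was at 0.308, 0.162 and 0 RPKM. Recovered from RPKM by the scale of 10200 other genes, the M-cKO values correspond to 2 fragments in each M-cKO library, fewer than the 3 counts that a count of 0 allows. The difference was not tested.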

How the results depend on the processing

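With 3 libraries a group, and under 30 reads of each embryonic globin in each Ctrl library of either assay, the size of the embryonic ratios is imprecise. Of 116 alternative values of the 12 sums and shares, 115 moved by less than the spread between replicates, and so did 306 of 308 for single genes and 156 of 161 for footprints per RNA. That spread was wide for the embryonic genes, so this tally does not show that their values are stable. The RNA-seq F-cKO share difference went from 5.93 to 1.97 without F-cKO 3 and was still within it, with an SD of 6.86 in F-cKO. The log2 ratio of the RNA-seq F-cKO embryonic sum (4.42) ran from 2.65 to 5.24 with 1 library left out.

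With 1 library left out, the genes called ran from 1543 to 3474 in RNA-seq F-cKO (3576 with all), from 0 to 1 in Ribo-seq F-cKO (0 with all) and from 177 to 2547 in Ribo-seq M-cKO (2093 with all). The erythroid genes called ran from 0 to 2 in RNA-seq F-cKO (1 with all), from 2 to 5 in RNA-seq M-cKO (3 with all) and from 0 to 3 in Ribo-seq M-cKO (0 with all). Fewer libraries were compared in each.

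With no filter, the erythroid genes called were 2 in RNA-seq F-cKO and 6 in RNA-seq M-cKO, where more genes were tested. With all 9 libraries in 1 fit, 2 erythroid genes were called in RNA-seq F-cKO, 1 gene in Ribo-seq F-cKO and 35 genes in Ribo-seq M-cKO. DESeq2 called 6 genes in Ribo-seq F-cKO and 4 erythroid genes in Ribo-seq M-cKO. The cause was not tested.

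With a replicate block that pairs libraries by number, 2130 genes were called in RNA-seq F-cKO, 0 of them erythroid, and 1319 in Ribo-seq M-cKO. Same-numbered libraries did not deviate together in every pair of any comparison, so the numbers do not show a pairing.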
